A study of Caenorhabditis elegans with 25 samples.

Results

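The apical extracellular matrix precuticle genes described here are lpr-3, let-653, fbn-1, noah-1, noah-2, sym-1, let-4 and dex-1. They were chosen by name as lipocalin, zona pellucida (ZP)-domain and leucine-rich repeat proteins of the precuticle, with dex-1 in the same set. The 8 genes, and the gene lists read beside them, were chosen with earlier results of these data known. Their counts of called genes beside the share of all genes are therefore a description and no independent test. They are 8 of the 42532 genes in the count table, and all 8 were among the 14634 genes with enough reads to be tested.

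The precuticle is a transient matrix that C. elegans epithelia secrete at their outer face before each new cuticle is laid down, in the embryo and again at each larval molt. It shapes the epidermis and keeps narrow tubes such as the excretory duct open, and it is shed or replaced once the collagen cuticle has formed. A day 1 adult has finished its last molt, but it carries embryos.

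Poly(A) RNA came from whole worms on day 1 of adulthood, in 25 libraries from 5 genotypes with 5 replicates each. The flp-17oe egl-6(lof) strain (AEF237) carried egl-6(n4537) and the extrachromosomal array ssrEx1193, which holds GFP-tagged flp-17 under the flp-17 promoter and a myo-3p:mCherry marker of muscle. Each library pooled many animals. The flp-17oe strain (AEF148) carried that array alone, egl-6(lof) (AEF236) carried egl-6(n4537), flp-17(lof) (AEF243) carried flp-17(n4894), and N2 was the wild type background of all of them. FLP-17 is a neuropeptide of the BAG sensory neurons, and EGL-6 is its G protein-coupled receptor, through which it inhibits egg laying. Extrachromosomal arrays are not passed to every animal, so animals of the array strains were sorted by their fluorescent marker a day before collection, while animals of the other strains were washed and replated. The array and the sort therefore go together and cannot be told apart, and the series has no control array that lacks flp-17.

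The libraries held 25164923 to 99717657 counts. Replicate 1 of every genotype was batch 1 and replicates 2 to 5 were batch 2. The targeted genes went with the labels, as the log2 change of flp-17 from N2 was 5.65 and 5.34 with the array, without and with wild type egl-6, and -3.92 in flp-17(lof). That of egl-6 was -1.06 in flp-17oe egl-6(lof), while egl-6(lof) had -1.10. The library of flp-17(lof) replicate 1 stood apart, with the fewest counts and 9.50% of them in ribosomal RNA genes, where the rest held 0.276% to 3.12%. Of 30 markers of hypodermis, intestine, muscle, pharynx, neurons, germline, sperm, glia, excretory cells and seam cells, 29 were above 0 in every library, and the glial microRNA gene mir-228 had 0 counts in all. Some of these markers differed in the array strains. In flp-17oe egl-6(lof) 3 of the 30 had every library above N2 (rol-6, dpy-7 and spe-41; 4.56% of all genes tested) and 2 had every library below (unc-54 and aqp-8; 2.32%). In flp-17oe 7 lay above (dpy-7, elt-2, myo-2, myo-1, rab-3, spe-41 and ptr-10; 4.98%) and aqp-8 lay below (3.68%). The neuronal rab-3 averaged 5.28 CPM in flp-17oe and 3.22 CPM in N2, the pharyngeal myo-2 71.6 and 48.3 CPM in these strains, and the excretory aqp-8 16.6 and 23.3 CPM. Other markers of neurons and excretory cells did not follow. The neuronal unc-119 averaged 11.2 CPM in flp-17oe and 12.3 CPM in N2, and snb-1 144 and 150 CPM. The excretory vha-5 averaged 67.0 and 68.6 CPM in these strains, and exc-4 40.3 and 38.8 CPM. The part of these differences in the results below was not tested. The labels do not say whether replicates were separate cultures, so p-values measure the spread between these samples.

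Levels are CPM, counts scaled to the library size after TMM correction, and changes are log2 changes from edgeR's quasi-likelihood test with Benjamini-Hochberg adjustment over all 14634 genes. A gene is called where its adjusted p is under 0.05. Values of a genotype are given by replicate number, with the batch 1 library first.

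All 8 genes had their highest mean in flp-17oe egl-6(lof) and their lowest in flp-17(lof). Single libraries set part of this order. Without flp-17oe egl-6(lof) replicate 5 the mean of that strain lay below that of flp-17oe for 5 genes (lpr-3, fbn-1, noah-2, sym-1 and dex-1), and in batch 2 alone let-4 averaged 0.358 CPM in flp-17(lof) against 0.344 CPM in N2. The ratio of the highest to the lowest mean was largest for lpr-3 (14.7) and sym-1 (10.8) and smallest for let-653 (1.92) and dex-1 (1.31). Against N2, 7 of the 8 genes rose in flp-17oe egl-6(lof) and 5 rose in flp-17oe, while none passed the test in either single mutant. The higher levels of the array strains lay in the batch 2 libraries, while in batch 1 the log2 differences from N2 lay on both sides of 0. Whole-worm RNA cannot tell apart fewer cells of a type and less RNA per cell.

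**Figure D1:**
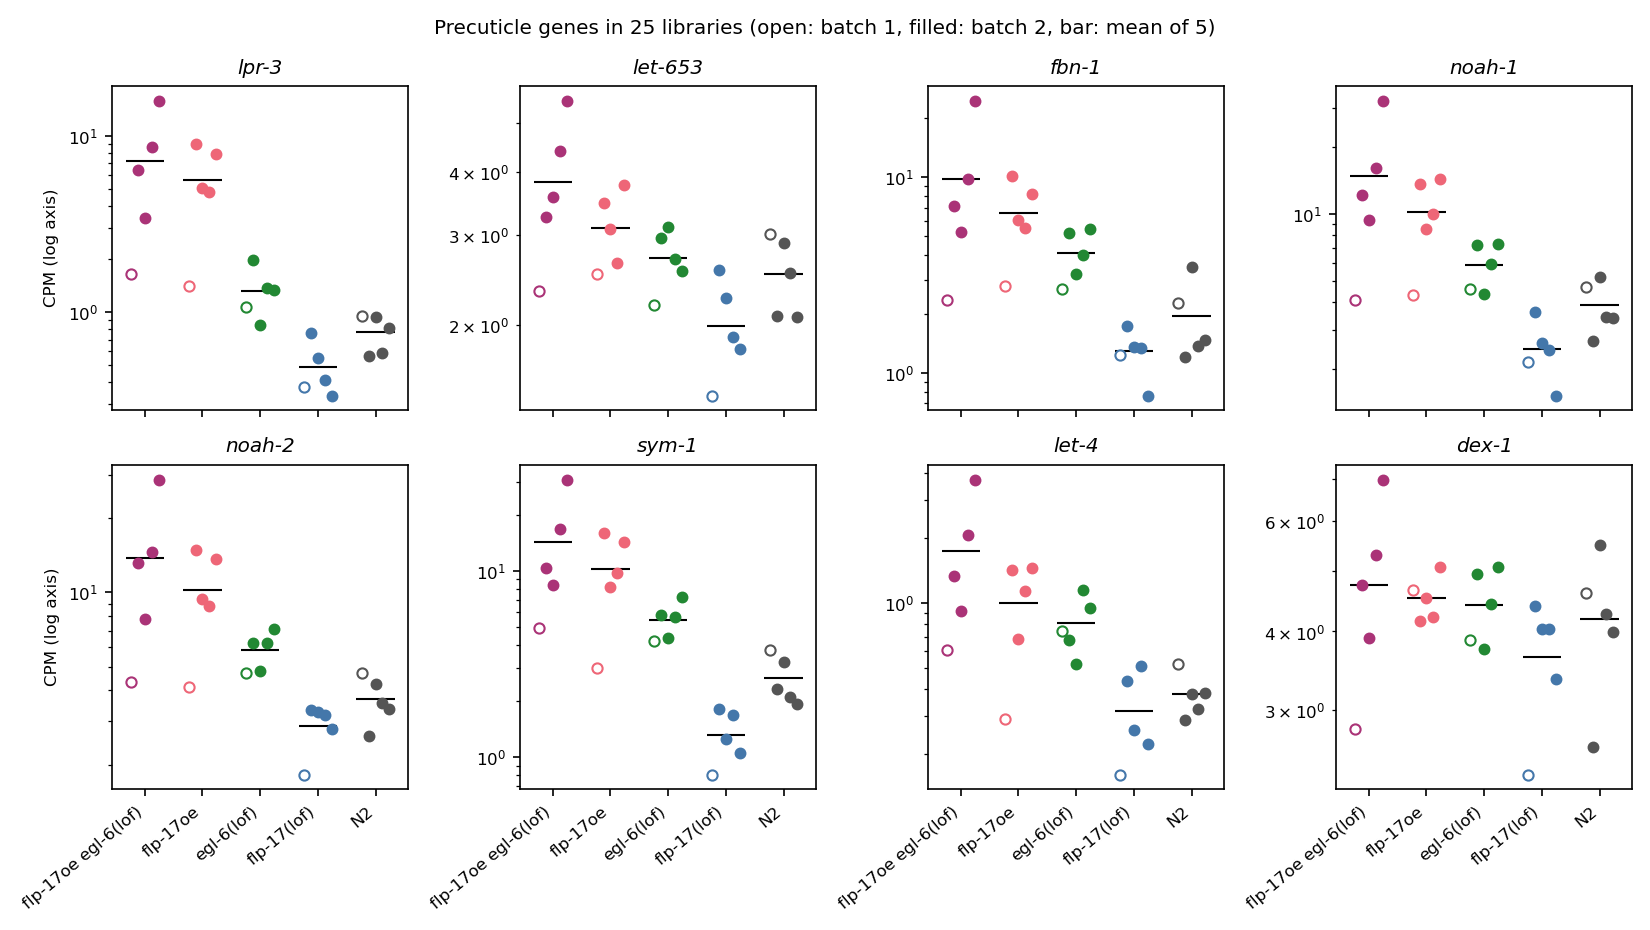
Level of each precuticle gene in CPM (log axis) in every library, by genotype. Open points are batch 1, filled points batch 2 and bars the mean of 5 libraries. For 7 of the 8 genes, dex-1 excepted, the batch 1 point of flp-17oe is the lowest of its group, and for all 8 the batch 1 point of flp-17oe egl-6(lof) is.

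The lipocalin gene lpr-3 (WBGene00012261, chromosome X, 11057401 to 11059793, plus strand, build ce11) encodes a small secreted protein of a family that carries lipids, and LPR-3 coats the epidermis and tubes before and during cuticle formation. Its levels were 1.65, 6.36, 3.44, 8.66 and 15.8 CPM in flp-17oe egl-6(lof) and 1.41, 8.96, 5.05, 4.79 and 7.92 CPM in flp-17oe. They were 1.08, 1.98, 0.843, 1.38 and 1.34 CPM in egl-6(lof), 0.376, 0.763, 0.547, 0.413 and 0.336 CPM in flp-17(lof), and 0.949, 0.562, 0.942, 0.589 and 0.817 CPM in N2. Every library of the array strains lay above every N2 library, but the batch 1 libraries of the array strains lay inside the egl-6(lof) range. The log2 change against N2 was 3.09 ± 0.44 (SE, adjusted p = 3.87e-05 by edgeR) in flp-17oe egl-6(lof) and 2.74 ± 0.44 (SE, adjusted p = 0.000287) in flp-17oe. Of the 8 genes, lpr-3 had the largest fold in these comparisons, 8.49 (95% interval 4.53 to 15.9) and 6.68 (3.57 to 12.5).

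The ZP-domain gene let-653 (WBGene00002827, chromosome IV, 11885613 to 11891082, plus strand) encodes a secreted protein that keeps the excretory duct and pore tubes and the vulval lumen open. Its levels were 2.33, 3.27, 3.57, 4.39 and 5.53 CPM in flp-17oe egl-6(lof) and 2.52, 3.47, 3.08, 2.65 and 3.77 CPM in flp-17oe. They were 2.19, 2.96, 3.11, 2.70 and 2.55 CPM in egl-6(lof), 1.45, 2.56, 2.26, 1.89 and 1.79 CPM in flp-17(lof), and 3.01, 2.08, 2.89, 2.52 and 2.07 CPM in N2. The groups overlapped throughout, with the highest values in batch 2 libraries of flp-17oe egl-6(lof). The log2 change against N2 was 0.58 ± 0.17 (SE, adjusted p = 0.0265 by edgeR) in flp-17oe egl-6(lof) and 0.29 ± 0.17 (SE, adjusted p = 0.335) in flp-17oe. The call of let-653 was lost in a fit to the compared genotypes only (adjusted p = 0.142) and in 9 of 30 fits that left out a library or a replicate number. Those left out replicate 2, 3, 4 or 5 of all genotypes, N2 replicate 2, 4 or 5, or flp-17oe egl-6(lof) replicate 4 or 5, with an adjusted p up to 0.323 by edgeR.

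The ZP-domain gene fbn-1 (WBGene00022816, chromosome III, 7625386 to 7641078, plus strand) encodes a large fibrillin-related matrix protein that resists mechanical strain on the embryonic epidermis. It had 2.35, 7.14, 5.22, 9.82 and 24.6 CPM in flp-17oe egl-6(lof) and 2.80, 10.2, 6.03, 5.49 and 8.18 CPM in flp-17oe. It had 2.67, 5.17, 3.19, 3.99 and 5.46 CPM in egl-6(lof), 1.24, 1.74, 1.36, 1.34 and 0.766 CPM in flp-17(lof), and 2.28, 1.21, 3.50, 1.37 and 1.48 CPM in N2. All batch 2 libraries of the array strains exceeded the highest N2 library, and the batch 1 libraries of both lay inside the N2 range. The log2 change against N2 was 2.20 ± 0.43 (SE, adjusted p = 0.00105 by edgeR) in flp-17oe egl-6(lof) and 1.65 ± 0.42 (SE, adjusted p = 0.0172) in flp-17oe.

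The ZP-domain genes noah-1 (WBGene00016422, chromosome I, 5874416 to 5878958, minus strand) and noah-2 (WBGene00009926, chromosome IV, 14091254 to 14096626, plus strand) encode related transmembrane matrix proteins that link the embryonic epidermis to its outer sheath. For noah-1 the levels were 4.10, 12.2, 9.37, 16.1 and 32.3 CPM in flp-17oe egl-6(lof), 4.32, 13.6, 8.57, 9.93 and 14.3 CPM in flp-17oe, and 4.70, 2.66, 5.18, 3.44 and 3.37 CPM in N2. For noah-2 they were 4.34, 13.2, 7.82, 14.6 and 28.6 CPM in flp-17oe egl-6(lof), 4.14, 14.9, 9.41, 8.81 and 13.7 CPM in flp-17oe, and 4.72, 2.63, 4.24, 3.55 and 3.35 CPM in N2. In both genes the batch 1 libraries of the array strains sat inside the N2 range and the batch 2 libraries lay above it. The means of the single mutants were lower than those of the array strains, with noah-1 at 4.59, 7.20, 4.34, 5.95 and 7.28 CPM in egl-6(lof) and 2.15, 3.61, 2.63, 2.42 and 1.51 CPM in flp-17(lof). For noah-2 they had 4.70, 6.25, 4.80, 6.24 and 7.07 CPM in egl-6(lof) and 1.83, 3.33, 3.27, 3.17 and 2.78 CPM in flp-17(lof). In both genes every egl-6(lof) library lay above every flp-17(lof) library. The log2 change of noah-1 against N2 was 1.82 ± 0.36 (SE, adjusted p = 0.00121 by edgeR) in flp-17oe egl-6(lof) and 1.30 ± 0.35 (SE, adjusted p = 0.0262) in flp-17oe. That of noah-2 was 1.77 ± 0.32 (SE, adjusted p = 0.000622) and 1.36 ± 0.32 (SE, adjusted p = 0.0104) in the same strains.

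The leucine-rich repeat genes sym-1 (WBGene00006366, chromosome X, 14581622 to 14584378) and let-4 (WBGene00002282, chromosome X, 14577935 to 14580923) are neighbours on the plus strand, with 698 bases between them. SYM-1 is a secreted protein that helps attach the embryonic epidermis and muscle to the cuticle, and LET-4 is a transmembrane protein that keeps the excretory duct and pore connected. The levels of sym-1 were 4.90, 10.4, 8.42, 16.7 and 30.8 CPM in flp-17oe egl-6(lof) and 3.01, 16.0, 8.18, 9.66 and 14.3 CPM in flp-17oe. They were 4.18, 5.81, 4.36, 5.63 and 7.20 CPM in egl-6(lof), 0.806, 1.81, 1.25, 1.67 and 1.05 CPM in flp-17(lof), and 3.77, 2.31, 3.23, 2.09 and 1.93 CPM in N2. For sym-1, each flp-17oe egl-6(lof) and egl-6(lof) library lay above every N2 library, each flp-17(lof) library lay below, and flp-17oe overlapped N2 in its batch 1 library. The log2 change of sym-1 against N2 was 2.29 ± 0.38 (SE, adjusted p = 0.000243 by edgeR) in flp-17oe egl-6(lof) and 1.81 ± 0.38 (SE, adjusted p = 0.0042) in flp-17oe.

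The levels of let-4 were 0.609, 1.34, 0.918, 2.07 and 3.74 CPM in flp-17oe egl-6(lof) and 0.292, 1.43, 0.680, 1.14 and 1.45 CPM in flp-17oe. They were 0.743, 0.676, 0.522, 1.16 and 0.956 CPM in egl-6(lof), 0.161, 0.438, 0.259, 0.512 and 0.224 CPM in flp-17(lof), and 0.522, 0.289, 0.381, 0.323 and 0.382 CPM in N2. These are the fewest reads of the set, with 17 to 22 counts per N2 library and 3 counts in the batch 1 library of flp-17(lof). The log2 change against N2 was 2.12 ± 0.41 (SE, adjusted p = 0.00106 by edgeR) in flp-17oe egl-6(lof), and 1.31 ± 0.42 (SE, adjusted p = 0.0593) in flp-17oe, which is just above 0.05 and so not called. Each flp-17oe egl-6(lof) and egl-6(lof) library lay above every N2 library, though the lowest of egl-6(lof) and the highest of N2 both round to 0.522 CPM, and flp-17oe overlapped N2 in its batch 1 library.

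The gene dex-1 (WBGene00017028, chromosome III, 5526104 to 5535507, plus strand) encodes a matrix protein with nidogen and EGF-like domains that acts in the anchoring of sensory dendrites and in the seam epidermis. Its levels were 2.79, 4.75, 3.91, 5.30 and 7.00 CPM in flp-17oe egl-6(lof) and 4.66, 4.15, 4.53, 4.22 and 5.07 CPM in flp-17oe. They were 3.88, 4.94, 3.75, 4.43 and 5.07 CPM in egl-6(lof), 2.36, 4.39, 4.04, 4.04 and 3.36 CPM in flp-17(lof), and 4.60, 2.61, 5.50, 4.27 and 4.00 CPM in N2. All groups overlapped, and no comparison called dex-1. Its log2 change against N2 was 0.16 in flp-17oe egl-6(lof) (95% interval -0.23 to 0.55, adjusted p = 0.669 by edgeR) and 0.12 in flp-17oe (95% interval -0.27 to 0.50, adjusted p = 0.727), so the upper bounds are 1.46-fold and 1.42-fold.

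Read per kilobase of exon, so that genes can be compared, the order of levels differed between genotypes. In N2 noah-2 came first (1.44 ± 0.316 CPM per kb, SD, n = 5), above sym-1 in all 5 libraries. Behind it sym-1 (1.09), dex-1 (1.04), noah-1 (1.02) and let-653 (0.955) formed a group in which each was above the next in only 2 or 3 of 5 libraries, followed by lpr-3 (0.374), fbn-1 (0.206) and let-4 (0.151). In flp-17oe the order was sym-1 (4.20 ± 2.12 CPM per kb, SD, n = 5), noah-2 (3.97), lpr-3 (2.72), noah-1 (2.68), let-653 (1.18), dex-1 (1.12), fbn-1 (0.684) and let-4 (0.397). There sym-1 and noah-2 were not set apart, nor were lpr-3 and noah-1, with the first above the second in 3 of 5 libraries in each case. Thus lpr-3 stood below let-653 and dex-1 in N2 and above both in flp-17oe, by its mean. In the batch 1 library of flp-17oe, though, lpr-3 (0.685) lay below let-653 (0.957) and dex-1 (1.16). The order also differed without the array, as noah-1 lay above dex-1 in all 5 egl-6(lof) libraries.

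**Figure D2:**
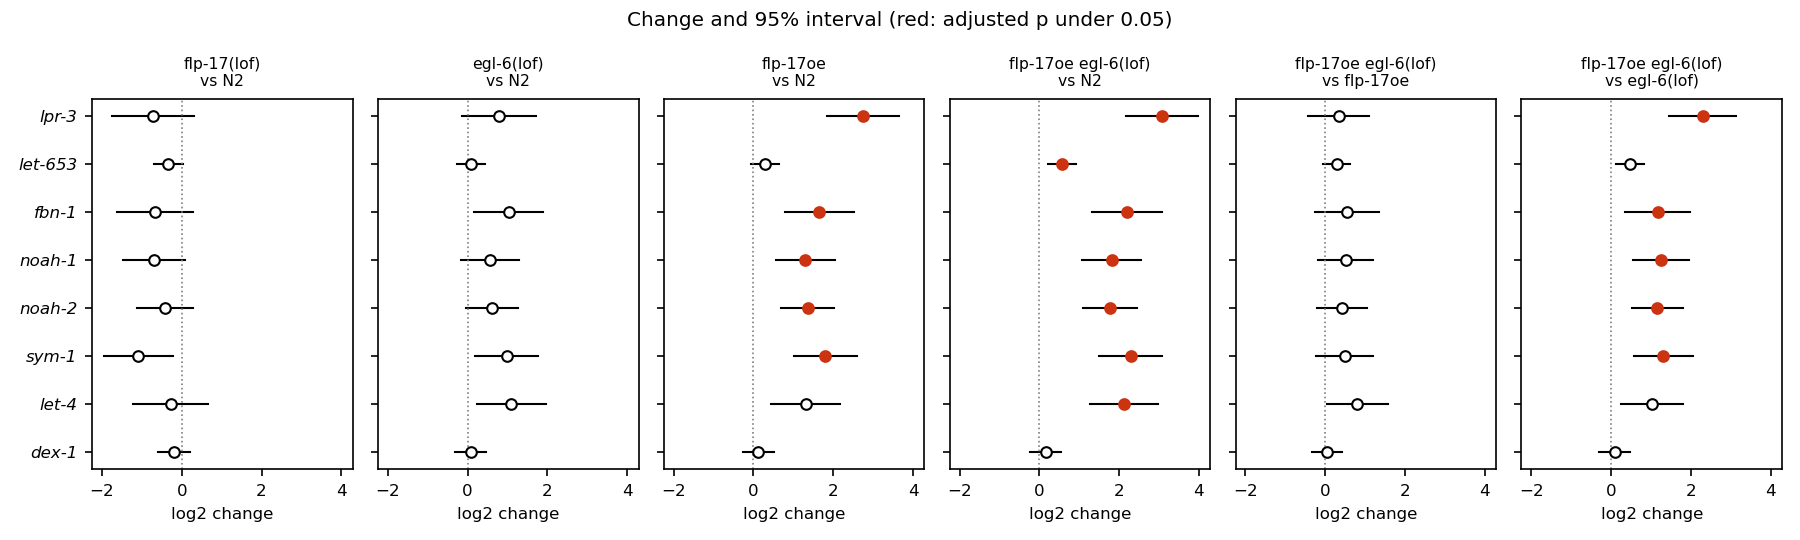
Log2 change of each precuticle gene (points) with its 95% interval (lines) in 6 comparisons, from edgeR. Red points have an adjusted p under 0.05: 7 genes in flp-17oe egl-6(lof) against N2, 5 in flp-17oe against N2, 5 in flp-17oe egl-6(lof) against egl-6(lof) and none in the other panels.

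Loss of the peptide or of its receptor alone changed none of the 8 genes past the threshold. In flp-17(lof) against N2 all 8 were lower, with a median log2 change of -0.55, and sym-1 (log2 change -1.09 ± 0.42, SE, adjusted p = 1.00 by edgeR) was the 1 gene with an unadjusted p under 0.05. Without N2 replicate 1, 7 of 8 were lower with a median of -0.27, and in batch 2 alone 7 of 8 with a median of -0.29, let-4 being the exception. The share of all genes called there was 0.0752%, and sym-1 was the 1 gene whose flp-17(lof) libraries all lay below N2, as did 0.335% of all genes. In egl-6(lof) against N2 all 8 were higher, with a median of 0.70, and fbn-1 (1.03), sym-1 (0.98) and let-4 (1.10) had unadjusted p under 0.05 with adjusted p of 0.421, 0.346 and 0.323 by edgeR, where 0.485% of all genes were called. In egl-6(lof), sym-1 and let-4 did not overlap N2, as 1.06% of all genes did not in that direction. Without N2 replicate 2, 6 of 8 were higher, and without N2 replicate 1 the median was 1.10. Both comparisons share the N2 libraries. By DESeq2 none of the 8 genes was called in either comparison as well.

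A direct comparison of the mutants, egl-6(lof) against flp-17(lof), needs no N2 library in its contrast and was added after the data were seen. There sym-1 (log2 change 2.06 ± 0.40, SE, adjusted p = 0.00916 by edgeR) and fbn-1 (1.70 ± 0.44, SE, adjusted p = 0.0475) were higher in egl-6(lof), 2 of 8 where 1.76% of all genes were called and 1.67% were higher. The median over the 8 genes was 1.32 and all 8 were higher. In lpr-3, fbn-1, noah-1, noah-2, sym-1 and let-4 each egl-6(lof) library lay above every flp-17(lof) library, which was so for 3.88% of all genes tested. The count was sensitive to the settings, with 6 of 8 called by DESeq2 (482 of all genes), 1 under a replicate block (229 of all genes) and 1 without flp-17(lof) replicate 1, the library that stood apart (151 of all genes), where 257 of all genes were called by edgeR with all libraries.

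In flp-17oe against N2, 5 of 8 genes rose (lpr-3, sym-1, noah-2, fbn-1 and noah-1), where 6.96% of all genes were called and 4.78% rose. The median log2 change was 1.33, with 0.005 over all genes tested. In lpr-3 alone every flp-17oe library was above every N2 library, as it was for 4.98% of all genes. In flp-17oe egl-6(lof) against N2, 7 of 8 rose, all but dex-1, where 12.5% of all genes were called and 8.62% rose. The median was 1.97, and lpr-3, sym-1 and let-4 did not overlap N2, as 4.56% of all genes did not in that direction. Leaving out N2 replicate 2, 4 or 5 left 3 genes called in flp-17oe (fbn-1 and noah-1 lost). Over all genes 750, 690 and 718 were then called, against 1018 with all libraries. The call of lpr-3 held in all 30 fits that left out a library or a replicate number.

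Among animals with the array, none of the 8 genes was called in flp-17oe egl-6(lof) relative to flp-17oe, where 1.39% of all genes were. All 8 had higher values in flp-17oe egl-6(lof), with a median log2 change of 0.45, and 1 had an unadjusted p under 0.05. Without flp-17oe egl-6(lof) replicate 5, the highest of its group for all 8 genes, 4 of 8 were higher and the median was 0.003, and in batch 1 alone 4 of 8 were higher. Without flp-17oe replicate 1 the median was 0.27. For lpr-3 the difference was 0.35 (95% interval -0.42 to 1.11), for noah-1 0.52 (-0.17 to 1.21) and for let-4 0.81 (0.04 to 1.57, adjusted p = 0.453 by edgeR). In flp-17oe egl-6(lof) against egl-6(lof), lpr-3 (log2 change 2.30), sym-1 (1.32), noah-1 (1.25), fbn-1 (1.17) and noah-2 (1.16) rose. These are 5 of 8 where 14.4% of all genes were called and 6.02% rose. The call of fbn-1 was near the threshold (adjusted p = 0.0479 by edgeR). Other size factors, both other filters, no batch term, the replicate block and the compared genotypes only each lost it (adjusted p up to 0.182 by edgeR). It held by DESeq2, in batch 2 alone and in 14 of 30 fits that left out a library or a replicate number. Without flp-17oe egl-6(lof) replicate 5, lpr-3 alone stayed called and the median fell to 0.68, against 1.17 with it. The calls over all genes were 1837 without that library and 2108 with it. The interaction term between array and receptor mutation passed the threshold for none of the 8 (0.0888% of all genes), with a median of -0.24 and 0 unadjusted p under 0.05, and DESeq2 called none there or between the array strains.

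The array strains were read in each batch too. The summed level of the 8 genes was 23.1 CPM in the batch 1 library of flp-17oe egl-6(lof) and 23.2 CPM in that of flp-17oe, against 24.6 CPM in N2. In batch 2 it was 42.7 to 148 CPM in flp-17oe egl-6(lof) and 45.5 to 72.7 CPM in flp-17oe, against 14.3 to 25.9 CPM in N2. The sums were thus close in batch 1, and in batch 2 every array library lay above every N2 library. Over the 8 genes the log2 difference in batch 1 ran from -0.71 to 0.77 in flp-17oe egl-6(lof) against N2 (median -0.04) and from -0.77 to 0.56 in flp-17oe against N2 (median -0.15).

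With batch 2 alone, 7 genes were called in flp-17oe egl-6(lof) against N2 (16.6% of all genes), 6 in flp-17oe against N2 (7.67%, let-4 added) and 7 in flp-17oe egl-6(lof) against egl-6(lof) (16.2%). The medians were 2.42, 1.78 and 1.39. In flp-17(lof) against N2, between the array strains and in the interaction 0 of 8 were called in batch 2 alone by edgeR (0.0963%, 2.07% and 1.16% of all genes), and in egl-6(lof) against flp-17(lof) 3 were (5.05%). In egl-6(lof) against N2, sym-1 was called in batch 2 alone (log2 change 1.28, adjusted p = 0.0264 by edgeR), 1 of 8 where 4.77% of all genes were. The difference between the batches was tested too, in a fit added after the data were seen. No gene of the 8 passed by edgeR. The smallest adjusted p was 0.345 in flp-17oe egl-6(lof) against N2 (0.0547% of all genes called), 0.557 in flp-17oe against N2 (0%) and 0.442 in flp-17oe egl-6(lof) against egl-6(lof) (0.909%). An unadjusted p under 0.05 by edgeR was found for 8, 5 and 3 of the 8 genes in these comparisons. The difference was larger in batch 2 for 8 of 8 genes in each, by a log2 of 1.09 to 2.78, 0.13 to 2.67 and 0.48 to 2.00. It also lay higher in batch 2 for 8 of 8 genes in the comparisons of each single mutant with N2. The range was 0.39 to 1.73 in flp-17(lof) against N2 and 0.41 to 1.13 in egl-6(lof) against N2. In egl-6(lof) against flp-17(lof), with no N2 library in its contrast, the difference lay higher in batch 2 for 2 of 8 genes (-0.97 to 0.64). N2 replicate 1, the batch 1 library, was the highest N2 library for 5 of the 8 genes. Batch 1 holds 1 library per genotype, so it gives no spread of its own.

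**Figure D3:**
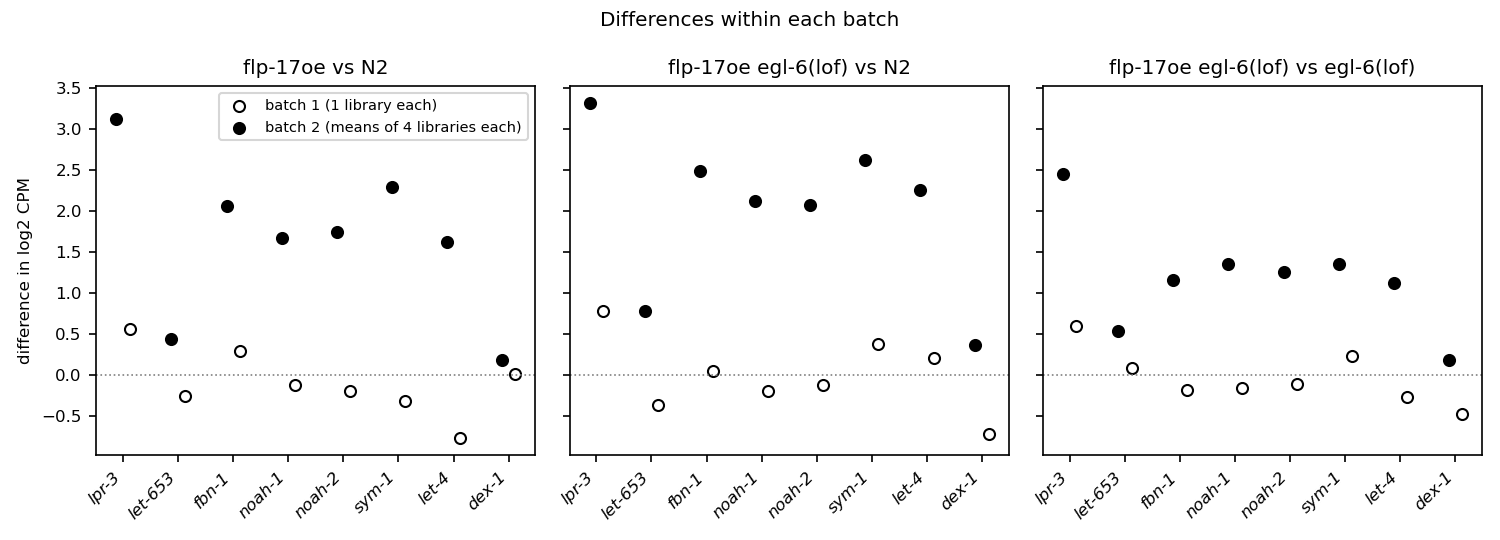
Difference in log2 CPM of each precuticle gene within batch 1 (open points, 1 library each) and batch 2 (filled points, means of 4 libraries each) for 3 comparisons. In batch 2 lpr-3 has the largest difference in every panel, and the batch 1 points lie between -0.77 and 0.77.

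The 8 genes varied together within genotypes. Over the 20 batch 2 libraries, deviations from the genotype means correlated with r of 0.467 to 0.957 in the 28 pairs of genes, a description in which the points share libraries and scaling. Without dex-1 and let-653 the range was 0.745 to 0.957, and the closest pair was fbn-1 with noah-1.

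By a fixed rule, the 10 other genes whose log2 CPM followed the mean of the 8 most closely over the 25 libraries, of 14626 compared, were C09F9.2 (r = 0.979), mlt-11 (0.974), clec-78 (0.951), dpy-3, wrt-10, subs-4, dpy-2, dpy-7, ugt-57 and lpr-6 (0.933). MLT-11 is a protease inhibitor of the molt, DPY-2, DPY-3 and DPY-7 are collagens of the cuticle furrows, and LPR-6 is another lipocalin. The value for the 8 genes themselves, each against the other 7, ran from 0.686 for dex-1 to 0.985 for noah-1.

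For the lists below, 8.62% of all genes tested rose in flp-17oe egl-6(lof) against N2 and 4.78% in flp-17oe against N2. In either direction 12.5% and 6.96% were called, so the rest of these fell. Of genes of the same protein classes, the lipocalin-related list had the highest median change. In flp-17oe against N2, 3 of 6 tested lpr genes rose, namely lpr-6 (log2 change 3.33), lpr-4 (3.23) and lpr-5 (3.07), with a list median of 1.81, and the same 3 rose in flp-17oe egl-6(lof) (median 2.12). Of 26 other tested ZP-domain genes, cutl-9 (1.82), cutl-24 (0.64) and cutl-8 (2.28) rose in flp-17oe (median 0.36), while in flp-17oe egl-6(lof) 10 rose and cut-4 fell (-0.58, median 0.56). Of 20 other tested extracellular leucine-rich repeat genes none was called in flp-17oe (3 had an unadjusted p under 0.05) and lron-3 fell in flp-17oe egl-6(lof) (-0.26).

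Other cuticle genes split by kind. All 6 furrow collagens, which make the annular furrows of the cuticle, rose in both array strains. Of all genes 8.62% rose in flp-17oe egl-6(lof) and 4.78% in flp-17oe. The median of the furrow collagens was 3.09 in flp-17oe egl-6(lof) and 2.67 in flp-17oe, led by dpy-8 (3.64 in flp-17oe), dpy-3 (3.17) and dpy-7 (2.79). Of 5 tested adult cuticle collagens none rose, and col-19 (-1.03) and col-62 (-1.43) fell in flp-17oe egl-6(lof). There 12.5% of all genes were called, 8.62% higher and the rest lower. Of 11 tested matrix proteases and inhibitors only mlt-11 rose, by 3.39 in flp-17oe egl-6(lof) and 2.79 in flp-17oe, and none of 10 epidermal attachment genes was called in either strain (an unadjusted p under 0.05 was found for 2 in flp-17oe egl-6(lof) and for 1 in flp-17oe).

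Of 22 molting cycle genes, 11 rose in flp-17oe egl-6(lof) (8.62% of all genes) and 7 in flp-17oe (4.78% of all genes). Among them were the Patched-related ptr-4 (2.31 in flp-17oe) and the hedgehog-related wrt-2 (2.46) and wrt-10 (2.45). Of 10 regulators of the molting timer, lin-42 (0.97), bed-3 (0.76) and nhr-25 (0.86) rose in flp-17oe, and the same 3 in flp-17oe egl-6(lof). LIN-42 is the worm Period protein, and NHR-25 is a nuclear receptor of epidermal cells.

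Embryos inside the adults also make precuticle, and embryonic lists were read beside these changes. Of 25 mid and late embryonic genes, 9 rose in flp-17oe egl-6(lof) (8.62% of all genes) and 1, nhr-25, in flp-17oe (4.78% of all genes). Among the 9 were hch-1 (1.87), ceh-43 (0.65) and pha-4 (0.59). The median log2 change of the 25 was 0.40 in flp-17oe egl-6(lof) and 0.11 in flp-17oe, with 21 higher in each. Higher values with an unadjusted p under 0.05 were found for 14 and 3 of them. The summed level of the 25 was 394 to 563 CPM in flp-17oe egl-6(lof) and 462 to 545 CPM in flp-17oe, against 378 to 557 CPM in N2. Of 18 tested early embryonic genes, sdz-28, vet-6, tbx-8 and pes-10 rose in flp-17oe egl-6(lof) and none in flp-17oe (3 had an unadjusted p under 0.05, all lower), with a median sum of 91.1 CPM in flp-17oe egl-6(lof), 76.8 CPM in flp-17oe and 84.3 CPM in N2. The ranges of both sums overlapped between the array strains and N2. Within genotypes in batch 2, deviations of the mid and late embryonic list correlated with those of the 8 genes at r = 0.736 over 20 libraries, which share scaling, and those of the early list at r = 0.0844. Among epidermal and matrix lists, r was 0.871 for epidermal attachment genes, 0.870 for other ZP-domain genes and 0.849 for molting timer regulators. It was 0.806 for molting cycle genes, 0.797 for other lpr genes, 0.795 for matrix proteases and inhibitors and 0.793 for furrow collagens. Other extracellular leucine-rich repeat genes (0.588) and adult cuticle collagens (0.0945) lay below the mid and late embryonic list. The lists are not separate, as nhr-25 is in both the molting timer and the mid and late embryonic lists. The part of embryonic RNA in these results was not tested.

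The list genes called in egl-6(lof) against N2 were cutl-10, a ZP-domain gene (1.18), and sperm genes. Of 28 tested sperm genes 5 rose in egl-6(lof) against N2 (msp-31, msp-33, msp-36, msp-76 and spe-41), where 0.485% of all genes were called. In flp-17oe egl-6(lof) against egl-6(lof) 26 fell, where 14.4% of all genes were called, 6.02% higher and the rest lower. In flp-17oe egl-6(lof) against N2 spe-41 rose. No sperm gene was called in flp-17oe against N2 (1 was higher and 2 lower at an unadjusted p under 0.05). Their summed level in the batch 1 libraries was 66.0 CPM in flp-17oe egl-6(lof), 74.6 CPM in flp-17oe and 164 CPM in N2. In batch 2 it was 9.24 to 25.2 CPM in flp-17oe egl-6(lof) and 9.87 to 18.2 CPM in flp-17oe, against 13.0 to 25.7 CPM in N2. The batch 1 library was thus the highest of its group in these 3 genotypes. In egl-6(lof) it was the lowest, at 72.8 CPM against 82.5 to 164 CPM in batch 2, and in flp-17(lof) it lay inside the batch 2 range, at 41.7 CPM against 28.2 to 49.6 CPM. The part of sperm RNA in the batch difference was not tested. No oocyte or eggshell gene of 22 was called against N2 in flp-17oe egl-6(lof) or flp-17oe, where 12.5% and 6.96% of all genes were. Of 6 vitellogenin genes vit-1 and vit-3 fell in flp-17oe, where 6.96% of all genes were called, 4.78% higher and the rest lower.

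**Figure D4:**
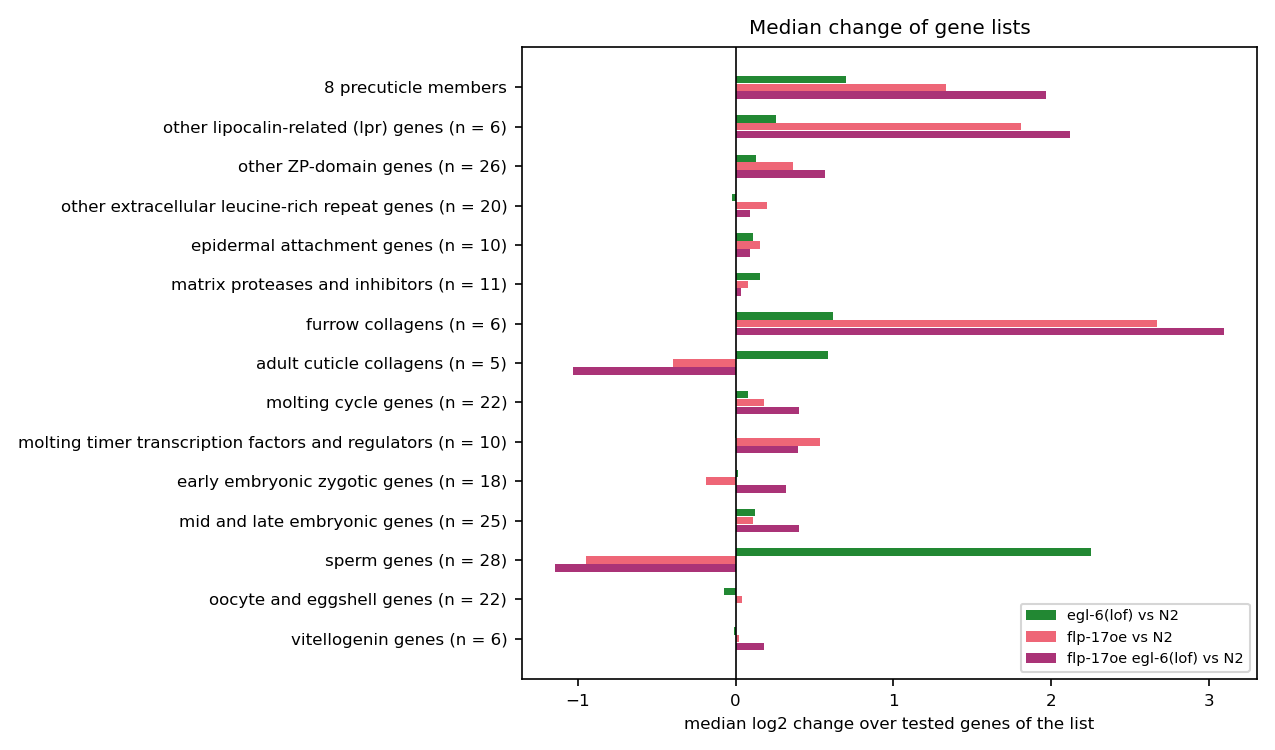
Median log2 change (bars) of the 8 precuticle genes and of 14 gene lists in 3 comparisons with N2, over the tested genes of each list. The furrow collagens (3.09 in flp-17oe egl-6(lof) and 2.67 in flp-17oe) and other lpr genes have medians above the precuticle genes in both array strains, while the oocyte and eggshell list lies at 0.00 and 0.04.

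Some exons overlap those of other genes. Exons on the opposite strand overlap sym-1 by 24 bases (C44H4.4, log2 change 0.02 in flp-17oe against N2) and fbn-1 by 45 bases (upp-1, 0.01), and C09F12.6, which overlaps lpr-3 by 110 bases, had 0 counts in every library. The non-coding gene C44H4.10 overlaps sym-1 by 211 bases on the opposite strand, and a piRNA gene overlaps noah-2 by 21 bases on the same strand. Whether the counting used strand was not given.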

How the data were processed

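Whole day 1 adult C. elegans were measured by poly(A) RNA sequencing in 25 libraries. Per the submitters' processing notes, reads were aligned with STAR 2.7.11b to build ce11. The counting program is not given in the sources used. The authors deposited raw counts for each gene, per the labels, with no normalization, and every column was matched to a sample by its sample name. No library was left out. No replicates were duplicates of each other, since their chi-square per gene was at least 5.54.

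Genes were kept by filterByExpr by genotype (10 counts scaled to library size, 15 in total), leaving 14634. Counts were scaled by TMM factors, 0.740 in flp-17(lof) replicate 1 and 0.981 to 1.05 elsewhere. The 25 libraries entered 1 model with terms for genotype and batch (edgeR 4.0.16, robust quasi-likelihood test, limma 3.58.1, R 4.3.3), which was tested on simulated data. SE is the log2 change over the square root of F. Correlations used log2 CPM with a prior count of 2. Gene positions and exon lengths came from Ensembl 115, matched by symbol for 40181 of 42532 genes. Total counts of 25164923 to 99717657 limit the precision of the lowest genes.

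The 8 genes were reported in every comparison. From each of 14 lists up to 3 called genes with the smallest p in flp-17oe against N2 were named, as were the 10 genes most like the 8. Other list genes named in the text, such as cut-4, lron-3 and cutl-10, were chosen after their values were seen. The members and lists were chosen with earlier results of these data known. Alternatives were other size factors, DESeq2 1.42.0, no or a stricter filter, no batch term, a replicate block, the compared genotypes alone, batch 2 alone, and leaving out each library or replicate number. Same-numbered libraries deviated together in all 5 pairs of flp-17oe egl-6(lof) and flp-17oe (r of 0.133 to 0.573). In flp-17oe and N2 r was 0.0794 to 0.656, and in every other comparison the lowest r was negative. The numbers were taken as pairing the array strains, in the replicate block alone. The main model has a batch term and no replicate term, so it does not use this pairing.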

Additional observations from a re-analysis of the deposited data

How the results depend on the processing

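No log2 change of the 8 genes that was called reversed its sign. In flp-17oe egl-6(lof) against egl-6(lof) the 5 called genes became 1 in a fit to the compared genotypes only (1533 of all genes called). Batch 2 only gave 1 called gene in place of 0 in egl-6(lof) against N2 (693 of all genes). In egl-6(lof) against flp-17(lof), which had 2 (257 of all genes), DESeq2 and the compared genotypes only gave 6 each (482 and 667 of all genes), and no count filter, no batch term and the replicate block gave 1 each (152, 85 and 229 of all genes). All other alternatives without a left-out library stayed within 1.5 times the reported count.

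Leaving out single libraries or replicate numbers (30 fits) gave 0 to 0 genes in flp-17(lof) against N2, 0 to 1 in egl-6(lof) against N2, 6 to 7 in flp-17oe egl-6(lof) against N2 and 1 to 6 in flp-17oe against N2. It gave 0 to 0 between the array strains, 1 to 7 in flp-17oe egl-6(lof) against egl-6(lof), 0 to 4 in egl-6(lof) against flp-17(lof) and 0 to 0 in the interaction. In flp-17oe against N2, leaving out replicate 2 or 4 of all genotypes left 1 gene, lpr-3. Over all genes 569 and 411 were then called, against 1018 with all libraries. In flp-17oe egl-6(lof) against egl-6(lof), leaving out replicate 4 or 5 left 1 and replicate 3 left 3. The calls over all genes were then 1321, 1447 and 1369, against 2108. Without N2 replicate 1, sym-1 was called in egl-6(lof) against N2 (457 of all genes, against 71 with it). In egl-6(lof) against flp-17(lof), 4 genes were called without N2 replicate 1 (363 of all genes, against 257). Without most other single libraries 1 was called (70 to 279 of all genes). Without replicate 3, 4 or 5 there were 0 (40, 27 and 31 of all genes). Each of these fits holds fewer libraries, and the cause of the shifts was not tested.

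With the replicate block in place of batch, let-4 was called in flp-17oe against N2 (adjusted p = 0.0451 by edgeR), fbn-1 was not in flp-17oe egl-6(lof) against egl-6(lof) (adjusted p = 0.0731), and 0 genes were called between the array strains, the paired genotypes. For let-4 and the other genes near 1 CPM or below, depth limits what can be seen.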
